A study of Homo sapiens with 8 samples.

Results

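The library held 15 sgRNAs placed around the start site of *MYB*, over its promoter, exon 1 and the start of intron 1, of 91 sgRNAs with a genomic target and of 24 that target *MYB* by any design. They were taken from the deposited fold-change table as the sgRNAs of *MYB* in the classes TSS (2 sgRNAs) and Tiling (13 sgRNAs), and no measured value entered that choice. Each was measured in K562, an established human erythroleukaemia line, in a CRISPRi line and in a CRISPRa line that expresses dCas9-VPR. The CRISPRa line is a single clone. Both lines received the same sgRNA library, were pooled, and were collected 8 days after transduction on 2 10X lanes for ECCITE-seq, which reads the RNA, the sgRNA and a hashing tag of the line from the same cell. The controls of each line are its own cells with a non-targeting sgRNA (NTC), 536 cells in CRISPRi and 323 in CRISPRa, and all fold changes of a line share them. The value reported for each sgRNA is log2(FC), the log2 of mean normalized expression in the cells that carry it over that in the NTC cells. The 15 sgRNAs were carried by 1472 CRISPRi cells and 1534 CRISPRa cells, from 45 to 214 cells per sgRNA and line. There was 1 culture per line, so that no log2(FC) carries an error from repeated cultures, and the tests below permute sgRNAs, so that their p-values measure the spread between target sites. The table holds no expression levels, so the identity of the cells could not be checked from the level of marker genes.

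*MYB* encodes a transcription factor that keeps blood progenitors dividing and is switched off as red cells mature. In CRISPRi, the catalytically dead Cas9 carries repressor domains to the sgRNA target, and at a promoter it can both recruit repressive chromatin and stand in the path of RNA polymerase. In CRISPRa, the same dead Cas9 carries activator domains instead, and such sgRNAs are usually placed upstream of the start site. Guides close to a start site therefore test where along a promoter each kind of effector acts.

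The sgRNA targets lie on chromosome 6 of hg38, from −813.5 bp (upstream) to 673.5 bp (downstream) of the deposited start site of *MYB* at chr6:135181386-135181386, with distances taken to the centre of the protospacer. GENCODE 44 starts the gene 78 bp further upstream, at 135181308, and none of the 15 sgRNAs changes side with that start. Upstream lie 7 sgRNAs, all outside the annotated gene. Downstream lie 8, of which 4 touch exon 1 (135181308 to 135181536) and 4 lie in intron 1. Neighbouring targets were 14 to 226 bp apart, with a median of 97.5 bp. All 15 protospacers were found with their PAM in hg38 where the table places them. The following 8 are MYB_6 and MYB_7 upstream, the 4 that touch exon 1, and MYB_10 and MYB_12 of the 4 in intron 1. They run in the order of the gene, from upstream to downstream, 5′ to 3′ on the strand of the protospacer, with the PAM in capitals.
MYB_6: agggcgcgtgcgcactgcagGGG
MYB_7: gtccaaagctctttgtttgaTGG
MYB_14: gaaacttcgccccagcggtgCGG
MYB_8: gagagccgcggggaccgcacCGG
MYB_15: gcgccatggcccgaagacccCGG
MYB_9: agaccccggcacaggtaacgGGG
MYB_10: ttcgttccgggatcatctgaGGG
MYB_12: ggatccctcgccgacacccgCGG

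MYB_6 (chr6:135181217-135181236) and MYB_7 (chr6:135181265-135181284) are the last targets before the gene, on the plus strand, which is the strand of *MYB*. MYB_14 (chr6:135181383-135181402, plus strand) covers the deposited start and MYB_8 (chr6:135181469-135181488, minus strand) follows it, both in the 5′ UTR of exon 1. MYB_15 (chr6:135181509-135181528, plus strand) spans the start codon, and MYB_9 (chr6:135181523-135181542, plus strand) spans the end of exon 1. MYB_15 and MYB_9 share 6 bases and are not separate sites. MYB_10 (chr6:135181619-135181638, plus strand) and MYB_12 (chr6:135181887-135181906, minus strand) are in intron 1. Inside the protospacers of MYB_15 and MYB_9, the start codon and the first bases of intron 1 are marked in capitals in the next lines.
MYB_15 with the start codon in capitals: gcgccATGgcccgaagaccc
MYB_9 with the first bases of intron 1 in capitals: agaccccggcacagGTaacg

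The 250 bases that end just before the annotated start hold 3 of the upstream targets. The RefSeq sequence of this stretch (GRCh38.p14, chr6:135181058-135181307, plus strand) is given with the protospacers of MYB_5, MYB_6 and MYB_7 in capitals, in that order. It is 75.6% G and C and holds 34 CpG dinucleotides.
MYB promoter: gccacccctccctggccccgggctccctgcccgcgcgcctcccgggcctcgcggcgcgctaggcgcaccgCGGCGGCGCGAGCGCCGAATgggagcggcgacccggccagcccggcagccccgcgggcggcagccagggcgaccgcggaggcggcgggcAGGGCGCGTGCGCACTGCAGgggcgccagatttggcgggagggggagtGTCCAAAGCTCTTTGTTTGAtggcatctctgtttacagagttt

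In CRISPRi, the sgRNAs upstream of the start left *MYB* near its NTC level and those downstream lowered it. From far to near, the log2(FC) of *MYB* upstream was −0.12 with MYB_1 at −813.5 bp, −0.14 with MYB_2 at −587.5 bp, −0.14 with MYB_3 at −495.5 bp, 0.01 with MYB_4 at −347.5 bp, 0.00013 with MYB_5 at −248.5 bp, −0.19 with MYB_6 at −159.5 bp and 0.12 with MYB_7 at −111.5 bp. Within exon 1 it was −0.94 with MYB_14 at 6.5 bp, −0.83 with MYB_8 at 92.5 bp, −0.94 with MYB_15 at 132.5 bp and −0.86 with MYB_9 at 146.5 bp. Within intron 1 it was −0.23 with MYB_10 at 242.5 bp, −0.54 with MYB_11 at 348.5 bp, −0.94 with MYB_12 at 510.5 bp and −0.27 with MYB_13 at 673.5 bp. The 4 exon 1 sgRNAs lay close together, whereas the 4 intron 1 sgRNAs spread from the weakest downstream value to nearly the strongest.

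The mean log2(FC) in CRISPRi was −0.69 ± 0.30 (SD, n = 8) downstream and −0.07 ± 0.11 (SD, n = 7) upstream. The difference was −0.63, past the spread between sgRNAs (two-sided exact permutation test over 6435 splits, p = 0.00109). Adjusted by Benjamini-Hochberg over the 92 panel genes put to the same exact test, p was 0.00495. The values of the sides did not overlap: the highest downstream value was −0.23 and the lowest upstream value −0.19. Among the 91 other genes, 19.8% also had sides that did not overlap, and none had a larger absolute difference than *MYB*. The mean of the downstream sgRNAs corresponds to 61.8% of the NTC level and that of the upstream sgRNAs to 95.5%. Where a constant is added before the log, such ratios understate the change in expression.

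The largest change along the promoter fell between MYB_7 and MYB_14, the targets on either side of the start. They are 118 bp apart on the same strand, with 96 and 57 CRISPRi cells, and *MYB* dropped by 1.07 on the log2 scale from the former to the latter. The median size of the 14 steps between neighbouring targets was 0.17. The next in size were 0.66, from MYB_12 to MYB_13, and 0.63, from MYB_9 to MYB_10, both toward weaker repression. MYB_9 and MYB_10 are 96 bp apart on the same strand, and were carried by 100 and 126 cells. MYB_10 left 85.4% of the NTC level and MYB_9 left 55.2%. By contrast, the steps among the 4 exon 1 sgRNAs were between 0.08 and 0.11 in size.

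The spread expected where *MYB* is not targeted can be read from the 20 sgRNAs of *TET2*, a gene of DNA demethylation on another chromosome, with 29 to 142 CRISPRi cells each. Under these, *MYB* had a log2(FC) of 0.04 ± 0.04 (SD, n = 20) in CRISPRi, from −0.03 to 0.14. All 8 downstream sgRNAs of *MYB* lay below that range. So did 4 of the 7 upstream sgRNAs (MYB_1, MYB_2, MYB_3 and MYB_6), by far less, and the other 3 lay inside it. Below −0.25 in CRISPRi lay 7 of the 15 sgRNAs, all downstream. Of the values of the 91 other panel genes under the same sgRNAs, 6.59% lay below −0.25, and of the *MYB* values under *TET2* sgRNAs 0 of 20 did. MYB_13, at −0.27, was just past this fold and MYB_10, at −0.23, just short of it.

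In CRISPRa, no sgRNA brought *MYB* above 0.25. From far to near, the upstream log2(FC) was 0.14 with MYB_1, 0.09 with MYB_2, 0.04 with MYB_3, 0.05 with MYB_4, 0.13 with MYB_5, 0.10 with MYB_6 and 0.18 with MYB_7. In exon 1 it was 0.08 with MYB_14, −0.08 with MYB_8, −0.08 with MYB_15 and 0.03 with MYB_9, and in intron 1 −0.03 with MYB_10, 0.08 with MYB_11, −0.23 with MYB_12 and 0.0041 with MYB_13. All 7 upstream values were above 0, whereas 4 of the 8 downstream values were below it. The count above 0.25 was 0 of 15, and 1.76% of the values of the 91 other panel genes were above 0.25 under the same sgRNAs.

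The CRISPRa mean was −0.03 ± 0.10 (SD, n = 8) downstream and 0.10 ± 0.05 (SD, n = 7) upstream, and the values of the sides overlapped. The difference of −0.13 had a two-sided exact permutation p of 0.00591, which became 0.0138 adjusted over the 7 tests made on *MYB* here. It became 0.0672 by the exact test adjusted over all 92 panel genes, of which 0 passed 0.05. Other panel genes were further apart between the sides than *MYB* in 10 cases. The sides did not overlap for 1.1% of the 91 other genes.

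In CRISPRa, the untargeted level can be read in the same way. *MYB* under the 20 *TET2* sgRNAs in CRISPRa was 0.04 ± 0.06 (SD, n = 20), from −0.05 to 0.16. Of the upstream sgRNAs, only MYB_7, the nearest to the start, lay above that range. Of the downstream sgRNAs, MYB_8, MYB_15 and MYB_12 lay below it. Under the 21 sgRNAs of *NFE2*, *MYB* was 0.05 ± 0.04 (SD, n = 21) in CRISPRa, from −0.04 to 0.10, and 3 upstream sgRNAs (MYB_1, MYB_5 and MYB_7) lay above that narrower range. MYB_12 gave the lowest CRISPRa value of the 15, 85.3% of the NTC level, from 55 cells.

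The difference between the sides was larger in CRISPRi than in CRISPRa. For each sgRNA, the CRISPRi log2(FC) minus the CRISPRa log2(FC) ranged from −0.30 to −0.04 upstream and from −1.03 to −0.19 downstream. The side difference in CRISPRi minus that in CRISPRa was −0.50 (exact permutation test of the side, p = 0.00280, and 0.0172 adjusted over the 92 genes). The downstream mean was the lower of the sides in both lines. Over the 15 sgRNAs, the values in CRISPRi and CRISPRa had a Pearson r of 0.66 and a Spearman rho of 0.69. Within the 8 downstream sgRNAs r was 0.27 and within the 7 upstream 0.47, both below the value over all 15. These points share a target sequence but not cells.

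The strand of the protospacer made no detectable difference in CRISPRi. The 10 sgRNAs on the strand of *MYB* had a mean of −0.38 ± 0.40 (SD, n = 10) and the 5 on the opposite strand −0.44 ± 0.42 (SD, n = 5), a difference of 0.05 (exact permutation test, p = 0.795). With strand permuted within each side, the difference was −0.01 (exact permutation test, p = 0.955). Downstream, the 5 sgRNAs on the strand of the gene ranged from −0.94 to −0.23 and the 3 on the opposite strand (MYB_8, MYB_12 and MYB_13) from −0.94 to −0.27.

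In CRISPRa, the sgRNAs on the strand of the gene gave 0.06 ± 0.08 (SD, n = 10) and those on the opposite strand −0.03 ± 0.14 (SD, n = 5). The difference of 0.09 did not pass 0.05 (exact permutation test, p = 0.104, and p = 0.0791 for a difference of 0.08 within sides). It was 0.12 among downstream sgRNAs and 0.03 among upstream sgRNAs. Without MYB_5, the sgRNA with fewest CRISPRa cells (45), the difference was 0.13 (exact permutation test, p = 0.0250), and without MYB_15 it was 0.11 (exact p = 0.0455). Without MYB_12, which is on the opposite strand, it was 0.04 (exact permutation test, p = 0.370).

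Several properties were set beside the effect, as descriptions over sites that share a promoter. The study used the scores and the position around the start when it designed the sgRNAs. Both therefore cover selected sites and not all possible ones. In CRISPRi, log2(FC) had an r of −0.53 and a rho of −0.64 with signed distance over the 15 sgRNAs, and of 0.35 and 0.33 with absolute distance. Within the 8 downstream sgRNAs, r with distance was 0.53 and rho 0.57. The predicted on-target score, from 0.11 to 0.70, had an r of 0.06 with log2(FC) in CRISPRi. Its median was 0.49 upstream, where repression was absent or slight, and 0.25 downstream. The pair in intron 1 with the largest step between neighbours had scores of 0.70 for MYB_12 and 0.11 for MYB_13. MYB_10, with 0.41, had the second highest score downstream and the weakest repression there. The specificity score was between 74.8 and 97.7 and had an r of −0.21 with log2(FC).

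Base composition differed along the tiled stretch without following the side. The protospacers were 40% to 80% G and C, with a median of 65% on both sides, and r with log2(FC) was −0.43 in CRISPRi and −0.49 in CRISPRa. The 200 bp around each target were 85.5% G and C at MYB_5 and 41.5% at MYB_13, with 37 and 3 CpG dinucleotides. With MYB_12, 56.5% G and C in the surrounding 200 bp went with a log2(FC) of −0.94, and with MYB_11 the same share went with −0.54.

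Among downstream sgRNAs in CRISPRi, more cells went with weaker repression. The r of cell number with log2(FC) was 0.82 and became 0.31 without the 2 sgRNAs farthest from the median cell number. The weakest, MYB_10 and MYB_13, had 126 and 115 CRISPRi cells, and the other 6 had 57 to 100. In CRISPRa the same pair had 138 and 117 cells, and the other 6 had 55 to 179. The part of cell number in the result was not tested. Over all 15 sgRNAs, r with cells was 0.39 in CRISPRi and 0.21 in CRISPRa.

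Promoter sgRNAs of the other cis genes were compared by the same split along the strand of their gene. In CRISPRi, the downstream minus upstream difference of *MYB* minus that of *NFE2*, an erythroid transcription factor gene, was −0.62 (permutation test of the gene within sides, adjusted p = 0.00021 over 3 genes). Minus that of *TET2* it was −0.55 (permutation test, adjusted p = 0.000915). For *GFI1B*, a repressor gene of red cell and platelet development, the difference was −0.64, and the test against *MYB* gave 0.01 (permutation test, adjusted p = 0.978). The upstream sgRNAs of *GFI1B* had a mean of −0.61 ± 0.51 (SD, n = 9), beside −0.07 ± 0.11 (SD, n = 7) for those of *MYB*. In CRISPRa, *MYB* did not differ detectably from the other genes in its side effect, with differences of 0.04 against *GFI1B*, 0.01 against *NFE2* and −0.20 against *TET2* (permutation test, adjusted p of 0.870, 0.870 and 0.791). The other sgRNA designs of *MYB* in CRISPRi were 5 with a mismatch, from −0.70 to 0.08, and 4 at an enhancer, from −0.48 to −0.02. In CRISPRa, *MYB* was at 0.09 to 0.12 with the mismatch sgRNAs and at 0.13 to 0.16 with the enhancer sgRNAs. Small positive values in that line were therefore not particular to the upstream promoter sgRNAs.

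The same split was applied to the 91 other genes of the capture panel, which were read from the same cells. In CRISPRi, 18 genes (19.8%) were higher and 40 (44%) were lower with downstream than with upstream sgRNAs, at an adjusted p under 0.05 by the exact permutation test. Here a gene that rose or fell did so with downstream relative to upstream sgRNAs. The median difference over the 91 genes was −0.04. The panel genes were picked by the study, so the shares describe the panel and not the transcriptome.

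Genes for heme and haemoglobin rose. *ALAS2*, the rate-limiting enzyme of heme synthesis in red cells, had downstream values from 0.38 to 0.78 with a median of 0.74, and upstream values from 0.01 to 0.34 with a median of 0.17. The sides did not overlap, and the difference was 0.47 (exact test, adjusted p = 0.00509). *SLC25A37*, the mitochondrial iron importer of red cells, rose by 0.10 (exact test, adjusted p = 0.00509) and is the other panel gene of the heme and iron list. *HBZ*, the embryonic zeta globin and the only globin on the panel, rose by 0.24 (exact test, adjusted p = 0.00556), from a median of 0.06 upstream to 0.35 downstream.

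Among red cell membrane and blood group genes, the Rh antigen gene *RHD* rose by 0.33 and *ERMAP*, an erythroid membrane protein gene, by 0.11 (exact test, adjusted p of 0.00544 and 0.0367). *SPTB*, which encodes a spectrin, had a difference of −0.02 and did not pass. Of the carbonic anhydrase genes, *CA8* fell by 0.05 (exact test, adjusted p = 0.0264) and *CA1* had a difference of 0.25 that missed the threshold (exact test, adjusted p = 0.0582).

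The largest rise on the panel was that of *TUBB1*, a tubulin gene of platelets and megakaryocytes, with a difference of 0.57 (exact test, adjusted p = 0.00509). Its downstream values ran from 0.42 to 0.87 and its upstream values from −0.23 to 0.40. The other platelet-list genes, *ANKRD26* and *SRGN*, did not pass, at −0.07 and −0.02. Of 3 stimulus-induced genes, *BTG2*, an antiproliferative gene, rose by 0.32 and *JUN*, a subunit gene of AP-1, by 0.18 (exact test, adjusted p of 0.00509 and 0.0245). *BHLHE40* did not pass, at 0.04. Others past the threshold among the 10 largest rises were *CCDC173* at 0.27, *RELN* at 0.22 and *DAPP1* at 0.19.

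Among 7 blood transcription factor genes, 3 fell and 1 rose, with a median difference of −0.06, near the shares of the whole panel (44% lower and 19.8% higher). *NFIA*, a factor of erythroid fate, fell by 0.42 and *GATA2*, a progenitor factor, by 0.35 (exact test, adjusted p = 0.00509 for each), and *FOXP1* fell by 0.20 (exact test, adjusted p = 0.00643). The upstream values of *NFIA* were −0.15 to 0.06 and the downstream values −0.68 to −0.18, with no overlap. *SPI1*, the myeloid factor PU.1, rose by 0.18 (exact test, adjusted p = 0.0419). *GFI1B*, *NFE2* and *RUNX1* did not pass, at −0.02, −0.0022 and −0.06.

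The other large falls were in *CELF2*, an RNA-binding protein gene, at −0.38, *FAM27C* at −0.32, the long noncoding RNA *UCA1* at −0.32, *PPP1R14A*, a phosphatase inhibitor gene, at −0.32, *PKP3*, a desmosome gene, at −0.27, *LIMA1*, an actin-binding protein gene, at −0.24, *TLNRD1* at −0.23 and *HES4*, a Hes family factor gene, at −0.21 (exact test, adjusted p from 0.00509 to 0.00741). The control gene *GAPDH* differed by −0.04 and passed (exact test, adjusted p = 0.00509). Its upstream values lay within −0.0073 and 0.0013 and its downstream values within −0.079 and −0.011, with no overlap. Over the 15 sgRNAs in CRISPRi, its log2(FC) had an r of 0.95 with that of *MYB*. *LHX3*, the other control gene, had the same value of −0.01 under all 8 downstream sgRNAs and a difference of −0.0057 that did not pass.

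In CRISPRi, the response over the panel was larger with the sgRNAs that lowered *MYB* most. The mean absolute log2(FC) of the 91 other genes in CRISPRi was 0.16 ± 0.06 (SD, n = 8) downstream and 0.05 ± 0.01 (SD, n = 7) upstream, and 0.05 ± 0.01 (SD, n = 20) under the *TET2* sgRNAs. It was 0.22 for MYB_14, 0.20 for MYB_15, 0.19 for MYB_9, 0.19 for MYB_12 and 0.17 for MYB_8, the 5 sgRNAs with the lowest *MYB*. It was 0.13 for MYB_11, 0.08 for MYB_10 and 0.07 for MYB_13, the 3 weaker ones. Upstream, MYB_6 had both the lowest *MYB* and the largest response, 0.07, with *TUBB1* at 0.40 and *ALAS2* at 0.34. The other upstream sgRNAs had responses from 0.04 to 0.05, not in the order of *MYB* repression. The response was 0.05 for MYB_4, with *MYB* at 0.01, and 0.04 for MYB_1, with *MYB* at −0.12. *MYB* and the 91 other genes were read in the same cells and against the same NTC cells. Over the 15 sgRNAs in CRISPRi, the mean absolute log2(FC) had an r of 0.99 with the absolute log2(FC) of *MYB* and of −0.47 with the number of cells. In CRISPRa these were 0.53 and −0.61. The r with *MYB* spans both sides and, being on absolute values, counts a rise of *MYB* like a fall. The part of cell number in the size of the response was not tested.

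In CRISPRa, 0 of the 91 genes (0% in each direction) passed an adjusted p of 0.05 by the exact permutation test or by limma, and 20 had an unadjusted exact p under 0.05. The smallest adjusted p was 0.0738 by the exact permutation test and 0.0502 by limma, just over the threshold. Differences in the lists were in the direction of CRISPRi for *ALAS2* at 0.28, *BTG2* at 0.25, *TUBB1* at 0.19, *RHD* at 0.13 and *HBZ* at 0.12, none past the threshold. The listed genes that went the other way were *SPI1* at −0.04 and *NFE2* at 0.03. In CRISPRa, the mean absolute log2(FC) of the 91 genes was 0.069 ± 0.023 (SD, n = 8) downstream and 0.056 ± 0.007 (SD, n = 7) upstream. Under the *TET2* sgRNAs it was similar, 0.065 ± 0.015 (SD, n = 20). *BTG2* had its highest CRISPRa values, 0.64 and 0.49, under MYB_12 and MYB_8, the sgRNAs with the lowest *MYB* in that line at −0.23 and −0.08. *SPI1* was at −0.43 under MYB_12 in CRISPRa and at 0.42 under the same sgRNA in CRISPRi.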

How the data were processed

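Targeted-panel reads were aligned by the authors to GRCh38 in Cell Ranger. Cells of low quality or with several sgRNAs were dropped, lanes were merged and values normalized in Seurat, and the authors deposited 1 table of log2 fold changes per sgRNA, line and gene. The methods describe a natural log, but the deposited column is named log2 and was taken as such. The authors also deposited on-target and specificity scores, used as given, and p-values and FDRs over cells, which were not used. Depth is given as cells per sgRNA, since counts were not used here, and the 8 sequencing records were not analysed singly.

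The 15 sgRNAs, gene lists and tests were chosen with earlier results of these data known. Sides follow the strand of the gene. Tests are two-sided exact permutations of sgRNAs, or 100000 resamples between cis genes, with Benjamini-Hochberg adjustment at 0.05. The named genes are the listed genes and the 10 largest rises and 10 largest falls past the threshold in CRISPRi, with up to 5 each in CRISPRa. One selected gene is not reported here. Simulated data were used to test the code. Python 3.11.15, numpy 2.4.6, scipy 1.17.1, R 4.3.3 and limma 3.58.1 were used. Annotation is GENCODE 44. Alternatives were the start site, a minimum of 50 cells, Tiling sgRNAs alone, linear ratios, medians, limma, other folds (0.15 and 0.5) and leaving out each sgRNA.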

Additional observations from a re-analysis of the deposited data

Results flagged for a closer look

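The effect of the side of the start on *MYB* differed between the lines. Downstream minus upstream, log2(FC) was −0.63 in CRISPRi and −0.13 in CRISPRa, and the difference between these, −0.50, passed the exact permutation test of the side (p = 0.00280). The value per sgRNA was lower in CRISPRi than in CRISPRa for 15 of 15 sgRNAs, with a smallest gap of −0.04 for MYB_4. All values of a line share its NTC cells, so the 15 are not independent. No such count is given for the other panel genes. By Dixon's ratio of gap to range, none of the 7 upstream or 8 downstream sgRNAs passed the critical value in either line. The nearest to it was MYB_12 among the downstream sgRNAs in CRISPRa, at 0.46 against 0.526. In groups this small, the ratio can miss a distant value.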

How the results depend on the processing

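Of 186 recomputed values, 175 kept their direction and side of the threshold, or a similar count. Some could not have changed: the GENCODE start moved no sgRNA to the other side, and the 50-cell minimum dropped none in CRISPRi. These are counted among the 175. No paired analysis was possible because the values come from 1 table made from the cells of both lanes, in which no column names a sample and so no replicate number can serve as a block. The comparison of the lines pairs values by sgRNA. Leaving out each sgRNA, the *MYB* side difference stayed between −0.69 and −0.59 in CRISPRi and between −0.15 and −0.10 in CRISPRa. The strand difference ranged from −0.0709 to 0.163 in CRISPRi, with its sign turned without MYB_7, MYB_8 or MYB_12. In CRISPRa it ranged from 0.0433 to 0.132, past an unadjusted 0.05 by the exact test without MYB_5 or MYB_15. The minimum of 50 cells leaves out only MYB_5 in CRISPRa, so it gives that same result again (0.13). By medians, *MYB* minus *TET2* in CRISPRa was −0.33 (permutation test, p = 0.0467). With Tiling sgRNAs alone, genes higher downstream in CRISPRi became 10, from 18, and genes lower downstream in CRISPRa became 2, from 0. Leaving out each sgRNA, these counts ranged from 13 to 20 and from 0 to 2, the 2 without MYB_15. At a fold of 0.15, 1 sgRNA counted as raised in CRISPRa. Centring on the *TET2* sgRNAs, chosen after seeing the data, gave 8 sgRNAs below −0.25 in CRISPRi and 0 above 0.25 in CRISPRa. The causes were not tested. With 1 culture per line and 1 clone in CRISPRa, line and culture cannot be told apart, and no value has an error from repeated cultures.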
